A study of Mus musculus with 12 samples.

Results

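The genes described here carry out antigen presentation by major histocompatibility complex (MHC) class I in mouse hematopoietic stem cells (HSCs). They are the 10 genes H2-K1, H2-D1, B2m, Tap1, Tap2, Tapbp, Psmb8, Psmb9, Psmb10 and Nlrc5, taken by symbol from a deposited table of 18546 genes. All 10 were in the table, and all 10 were among the 15478 genes that reached 1 RPKM in 3 or more libraries and so entered the tests. RPKM is the number of reads per kilobase of gene length, scaled to the size of the library.

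The cells were HSCs of the SLAM gate, sorted from bone marrow as Lin-, Sca1+, cKit+, CD150+ and CD48- cells. Mice were C57BL/6 and 10 to 12 weeks old. After removal of ribosomal and mitochondrial transcripts, total RNA was sequenced with a stranded kit, giving 3 libraries for each of 4 genotypes and 12 in all. The genotypes were wild type, NrasG12D/+, Tet2+/- and NrasG12D/+;Tet2+/-, the last called compound here. NrasG12D is an activated form of a Ras GTPase, and Tet2 encodes an enzyme that oxidizes 5-methylcytosine in DNA. The labels name no Cre driver and no deleted exon, and they count 3 mice per genotype without saying how many mice gave each library.

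Class I molecules show peptides from the inside of a cell to CD8 T cells and natural killer cells. The proteasome cuts proteins into peptides, the TAP transporter carries the peptides into the endoplasmic reticulum, and tapasin helps to load them onto a heavy chain bound to beta-2 microglobulin. Interferon-gamma induces a set of catalytic subunits that replace the constitutive ones and form the immunoproteasome. The transactivator NLRC5 acts at class I promoters with the RFX, CREB and NF-Y factors. Stem cells and other nucleated blood cells express class I on their surface without stimulation.

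Libraries held 19205045 to 36890942 reads in genes, and 1000 to 3824 genes per library had 0 reads, most of all in wild-type replicate 1 and NrasG12D/+ replicate 2. Of the sorting markers, Kit had 64.7 to 86 RPKM, Slamf1 (CD150) had 3.17 to 11.3 RPKM, and Cd48 was at 0 reads in 9 of 12 libraries. Kit means were 66.7 in wild type, 73.7 in NrasG12D/+, 76 in Tet2+/- and 81.6 in compound libraries. In the same order Slamf1 means were 7.99, 6.26, 8.02 and 5.19. Of the 3 sorting markers tested, 1 had an unadjusted limma p under 0.05 for either averaged allele, and 0 passed the adjustment. Of all genes, 7.24% (Nras) and 3.81% (Tet2) were under 0.05. Ly6a, which encodes Sca1, had 2.21 to 8.32 RPKM, with means of 3.71 in wild type, 4.14 in Tet2+/-, 6.96 in NrasG12D/+ and 5.89 in compound libraries. Its difference with the Nras allele was 0.73 on the log2 scale (0.20 to 1.25, limma adjusted p = 0.503). Tet2 itself measured 4.93, 4.94 and 4.98 RPKM in wild type, 5.23, 4.09 and 4.82 RPKM in Tet2+/- and 4.5, 5.67 and 4.76 RPKM in compound libraries, with overlap between the genotypes. This total over the whole gene does not check the Tet2 labels, because the deleted part is not named.

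Promoters of the class I heavy chains H2-K1 and H2-D1, their partner B2m, and the divergent gene pair Tap1 and Psmb9 were searched for elements known for class I control. Their sequences are shown because the genes are read side by side below. They come from RefSeq on GRCm38.p6, 200 bases before the start of H2-K1 (chr17:34000348-34000547, minus strand), H2-D1 (chr17:35262894-35263093, plus strand) and B2m (chr2:122147487-122147686, plus strand). For Tap1 and Psmb9, whose starts face away from each other, the whole interval of 225 bases between the starts is given on the strand of Tap1 (chr17:34187331-34187555). Some RefSeq starts differ from the GENCODE M21 spans given below: the GENCODE span of Psmb9 covers this interval and overlaps that of Tap1, and the H2-D1 window lies inside the GENCODE span of H2-D1. Capitals mark matches on either strand to GGGANNNNCC (NF-kB), AANNGAAA (the core bound by interferon regulatory factors), TGACG (the core of a cyclic AMP response element) and CCAAT.
H2-K1: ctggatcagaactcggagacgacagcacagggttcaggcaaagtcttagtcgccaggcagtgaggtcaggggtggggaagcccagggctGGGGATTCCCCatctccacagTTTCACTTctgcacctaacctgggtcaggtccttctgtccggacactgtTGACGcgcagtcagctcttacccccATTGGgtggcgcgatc
H2-D1: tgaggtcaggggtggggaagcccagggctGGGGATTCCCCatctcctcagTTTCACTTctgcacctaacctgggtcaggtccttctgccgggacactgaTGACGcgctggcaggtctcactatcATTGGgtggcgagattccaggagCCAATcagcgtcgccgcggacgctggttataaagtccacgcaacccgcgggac
B2m: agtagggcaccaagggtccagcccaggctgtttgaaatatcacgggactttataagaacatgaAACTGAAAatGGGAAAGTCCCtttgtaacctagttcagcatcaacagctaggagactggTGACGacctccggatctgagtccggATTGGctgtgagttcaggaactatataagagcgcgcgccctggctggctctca
Tap1 and Psmb9: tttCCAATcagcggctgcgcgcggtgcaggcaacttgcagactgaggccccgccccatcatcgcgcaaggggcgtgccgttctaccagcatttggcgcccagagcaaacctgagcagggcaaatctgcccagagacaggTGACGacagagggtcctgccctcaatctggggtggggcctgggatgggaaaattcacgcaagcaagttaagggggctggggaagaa
The windows of H2-K1, H2-D1 and B2m each held all 4 motifs, with the NF-kB and interferon elements upstream of TGACG and TGACG upstream of CCAAT. In H2-K1 the NF-kB match lay 111 to 101 bases before the start, the interferon element 90 to 83, TGACG 41 to 37 and CCAAT 16 to 12. In B2m the interferon element came first, at 137 to 130 bases, followed by NF-kB at 127 to 117, TGACG at 78 to 74 and CCAAT at 53 to 49. The NF-kB match was read on both strands at nearly the same place in each of these 3 windows. An alignment of the H2-K1 and H2-D1 windows gave a stretch with 127 identical bases, 12 mismatches and 0 gaps, or 91.4% identity. The Tap1 and Psmb9 interval held TGACG and CCAAT, and the other motifs were not found in these letters. There CCAAT lay upstream of TGACG on the strand of Tap1, at 222 to 218 against 86 to 82 bases before its start. Among 32851 RefSeq windows of 200 bases, 14.9% held GGGANNNNCC, 17% held AANNGAAA, 15.7% held TGACG and 29.3% held CCAAT. In windows of 225 bases the shares were 16.3%, 19.2%, 16.8% and 31.6%.

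B2m was the most abundant of the 10 genes, followed by the heavy chains. Over the 12 libraries B2m averaged 686 ± 70.1 RPKM (SD, n = 12), H2-D1 143 ± 13.1 RPKM and H2-K1 80.5 ± 6.36 RPKM. In mean log2 RPKM, B2m lay above 99.9% of the genes tested, H2-D1 above 99.3%, H2-K1 above 98.5% and Psmb9, the lowest of the set, above 69.8%. These levels rest on 11881 to 24685 reads per library for B2m and 1084 to 2264 for Psmb9.

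The order among genes depended on the gene length used for scaling. The authors' lengths could be recovered from the table and were close to the summed length of all annotated transcripts for 75.1% of 17264 genes. Where that holds, genes with many transcripts look less abundant. It does not hold for each member: the length used for H2-K1 lay below its summed 16135 bases. Psmb10, with 7 transcripts, was divided by 1270 bases against 1705 of merged exons, which makes it look more abundant. H2-K1 was divided by 10091 bases although its merged GENCODE M21 exons span 2938, while H2-D1 was divided by 3615 against 2579 and B2m by 860 against 860. On the deposited scale H2-D1 exceeded H2-K1 in 12 of 12 libraries, by 0.83 ± 0.12 on the log2 scale (SD). Per kilobase of merged exons H2-K1 exceeded H2-D1 in 12 of 12 libraries, by 0.47 ± 0.12, with means of 277 and 200.3 RPKM recomputed with that length. B2m stayed first on either scale.

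Below the class I chains the remaining genes lay close together. On the deposited scale the order was Tapbp, Psmb10, Psmb8, Tap2, Nlrc5, Tap1 and Psmb9. The neighbours from Tapbp to Nlrc5 did not differ beyond their spread in exact two-sided sign-flip tests over 12 libraries, with Benjamini-Hochberg (BH) adjusted p of 0.602, 0.609, 0.17 and 0.602, while Nlrc5 exceeded Tap1 in 11 of 12 libraries (0.00176) and Tap1 exceeded Psmb9 in 12 of 12 (0.0011). Per merged exons the order was Tap1, Tapbp, Tap2, Nlrc5, Psmb8, Psmb10 and Psmb9. On that scale Tap1, the transporter chain divided by 16541 bases in the deposited values, moved from the last but one of these 7 places to the first, and Psmb10 and Psmb9 did not differ beyond their spread (adjusted p = 0.0822). Levels of different genes are therefore compared on both scales, and differences between genotypes, which length does not enter, on the deposited scale.

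**Figure D1:**
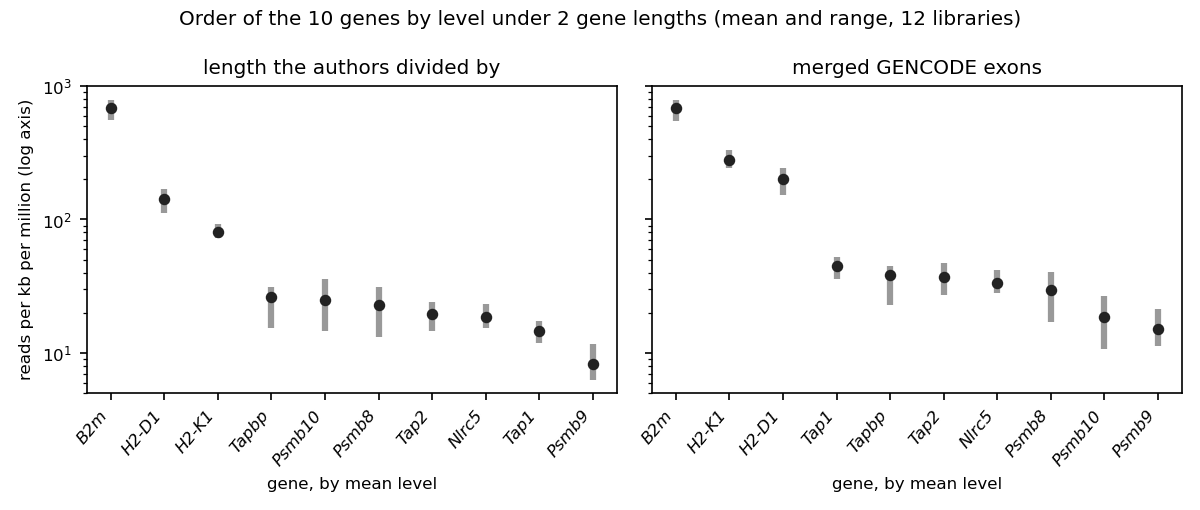
Mean (point) and range over 12 libraries (bar) of the level of each gene, on a log axis, scaled by the length the authors divided by (left) and by merged GENCODE exons (right). B2m is first in both panels, and H2-D1 and H2-K1 change places.

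Levels of the class I chains were among the steadiest in these cells. The SD of log2 RPKM between libraries of 1 genotype was 0.11 for H2-K1, 0.12 for H2-D1, 0.14 for Tap1 and 0.16 for B2m, against a median of 0.49 over all genes tested. Of the genes tested, 1.06% had a smaller spread than H2-K1, 2.4% than H2-D1, 3.9% than Tap1 and 6.67% than B2m. Psmb9, Nlrc5, Tap2 and Tapbp had SDs of 0.19, 0.19, 0.20 and 0.26. Psmb8 and Psmb10 varied most, with SDs of 0.39 and 0.45, and lay among the other genes, since 39.4% and 46% of them had a smaller spread. Genes with many reads tend to have a small spread in these libraries, so the position of the class I chains goes with their level.

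**Figure D2:**
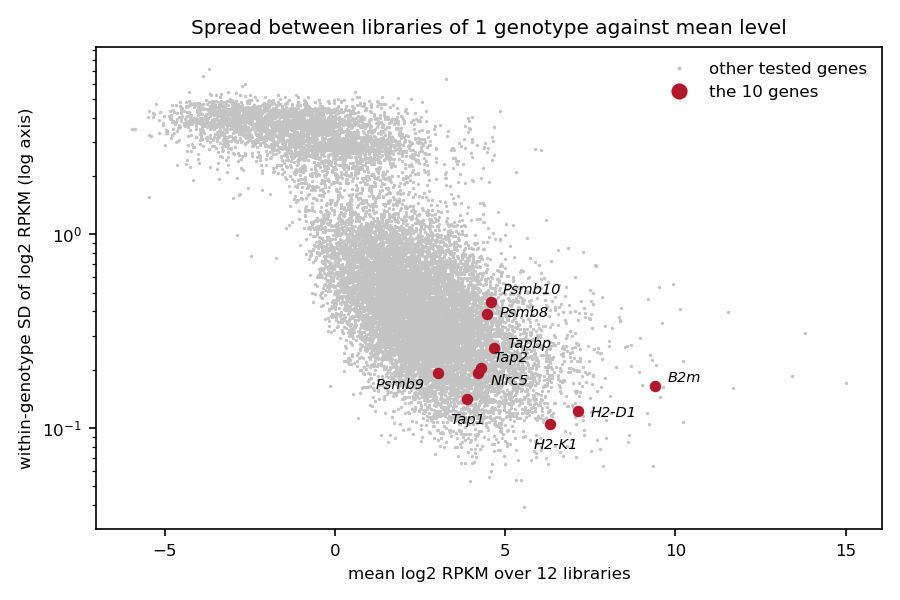
Within-genotype SD of log2 RPKM (log axis) against mean log2 RPKM for each gene tested, with the 10 genes in red. H2-K1, H2-D1 and Tap1 lie near the lower edge with SDs of 0.11 to 0.14, and Psmb10 is the highest of the set with 0.45.

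No member differed between genotypes past the threshold. The tests were made with limma over all 15478 genes at a BH adjusted p under 0.05, in 8 comparisons. Of these, 3 set a mutant genotype beside wild type and reuse the same 3 control libraries, so they are not independent of each other. Compound libraries were also compared with those of either single mutant, and the interaction asked whether the alleles add on the log2 scale. The averaged comparisons set the 6 libraries that carry an allele beside the 6 that do not. Against wild type, 0 of 10 members passed in NrasG12D/+, Tet2+/- and compound libraries, where the share of all genes called was 0.00646% each time. Comparing compound with NrasG12D/+ libraries gave 0 of 10 members and 0% of all genes, and comparing compound with Tet2+/- libraries gave 0 of 10 and 0.00646%. The interaction called 0 of 10 members and 0.0129% of genes, the averaged Nras allele 0 of 10 and 0.0323%, and the averaged Tet2 allele 0 of 10 and 0%. Called genes were thus nearly absent in the whole table too, so these counts say little about the members in particular. In voom, run on reads recovered from the table, 0 of 10 members passed in all 8 comparisons, beside 0.129% of all genes (20 genes) for the averaged Nras allele and 0% in the other 7. Where limma called 0 of all genes, 625 (compound against NrasG12D/+) and 589 (Tet2 allele) had an unadjusted p under 0.05, and voom called 0 there too.

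At an unadjusted p under 0.05, 1 of 10 members was counted in the comparison of Tet2+/- with wild type, beside 3.35% of all genes, and 1 of 10 in the averaged Nras comparison, beside 7.24%. In the other comparisons limma counted 0 of 10, beside 5.61% of all genes (NrasG12D/+ against wild type), 6.42% (compound against wild type), 4.04% (compound against NrasG12D/+), 5.45% (compound against Tet2+/-), 3.38% (interaction) and 3.81% (averaged Tet2). Counting by voom at the same level gave 1 of 10 for Tet2+/- against wild type, beside 3.99% of all genes, 1 of 10 for the averaged Nras allele, beside 9.23%, and 1 of 10 for the averaged Tet2 allele, beside 5.31%. In the rest voom counted 0 of 10, beside 6.11% (NrasG12D/+ against wild type), 6.85% (compound against wild type), 4.83% (compound against NrasG12D/+), 7.06% (compound against Tet2+/-) and 4.59% (interaction). The median log2 difference of the 10 members was 0.06 in NrasG12D/+, -0.11 in Tet2+/- and -0.05 in compound libraries against wild type, beside medians over all genes of 0.01, 0.04 and 0.02. For the averaged alleles the medians were 0.07 (Nras) and -0.09 (Tet2), beside -0.01 and 0.02 over all genes.

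**Figure D3:**
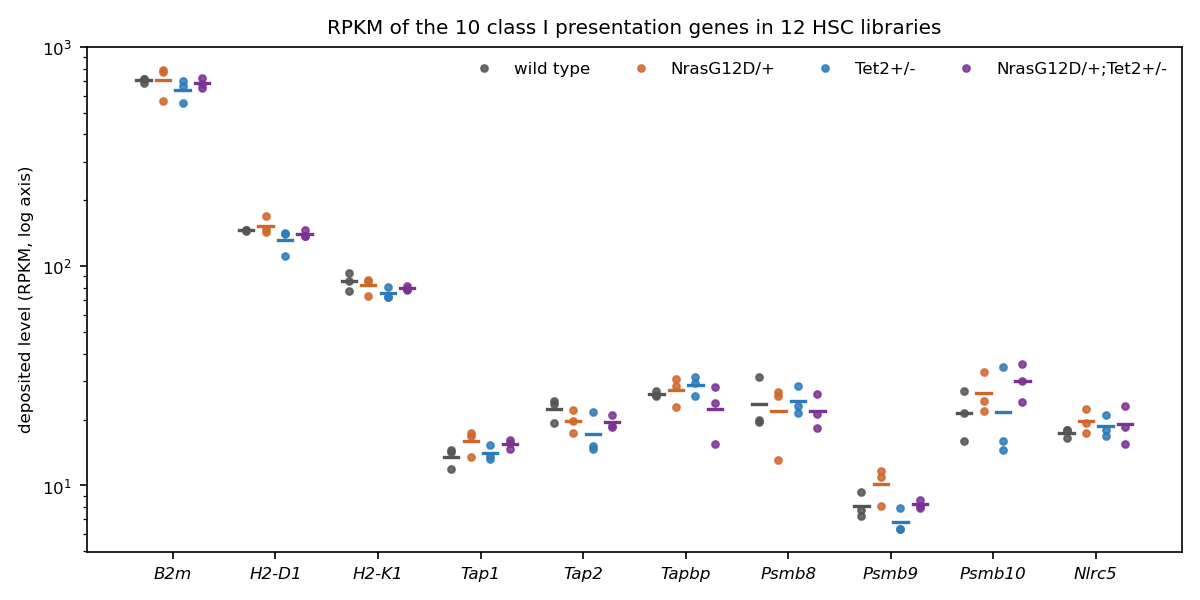
RPKM of the 10 genes on a log axis, 1 point per library, coloured by genotype, with a bar at the mean of 3 libraries. The genotypes overlap for most genes, and the points of H2-K1 span 72.5 to 93.1 RPKM while those of Psmb10 span 14.5 to 35.8.

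Of the heavy chains, which bind the peptide and are seen by T cells, H2-K1 spanned a narrow range over the 12 libraries. H2-D1 spanned 1.53-fold, more than B2m with 1.42-fold. H2-K1 measured 93.1, 85.7 and 77.3 RPKM in wild type, 73.6, 85.4 and 86.8 in NrasG12D/+, 80.5, 72.7 and 72.5 in Tet2+/- and 81.7, 78.6 and 77.9 in compound libraries. The highest library, in wild type, and the lowest, in Tet2+/-, differed 1.28-fold, the smallest range of the 10 genes, and all 4 genotypes overlapped. With the Nras allele H2-K1 differed by 0.01 on the log2 scale (95% interval -0.15 to 0.17), and with the Tet2 allele by -0.11 (-0.27 to 0.05). H2-D1 measured 147, 147 and 145 RPKM in wild type, 144, 169 and 148 in NrasG12D/+, 142, 141 and 111 in Tet2+/- and 137, 137 and 146 in compound libraries. Its 3 Tet2+/- libraries all lay below wild type, the closest by 145 against 142, and Tet2+/- replicate 3 stood lowest. That difference was -0.17 (-0.42 to 0.08, limma adjusted p = 1), and 9.25% of all genes had no overlap in the same comparison.

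Counts of these genes carry an uncertainty of their own. Of the stretches of 50 bases in the transcripts of H2-K1, 9.63% also occur in another gene, foremost H2-Q10, H2-D1 and H2-Q7, and for H2-D1 the share was 12.8%, foremost H2-Q1, H2-K1 and H2-Q7. How the counting treated such reads is not given in the sources used here. H2-K1 lies at chr17:33996017-34000347 (minus strand) and H2-D1 at chr17:35262730-35267499 (plus strand) in GENCODE M21 on mm10.

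B2m, the light chain that every class I molecule needs for its fold and surface transport, lies outside the MHC at chr2:122147686-122153083 and shared no stretch of 50 bases with another gene. It measured 690.1, 717 and 719 RPKM in wild type, 567, 768 and 788 in NrasG12D/+, 555, 665 and 702 in Tet2+/- and 653, 682 and 728 in compound libraries. The 2 lowest values came from different genotypes, and the genotypes overlapped. Its largest difference from wild type was -0.15 in Tet2+/- (-0.51 to 0.20, limma adjusted p = 1). The averaged alleles gave 0.05 (-0.21 to 0.30) for Nras and -0.09 (-0.34 to 0.16) for Tet2.

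Tap1 and Tap2 form the peptide transporter, and both lie in the class II region of the MHC beside Psmb8 and Psmb9. Tap1 (chr17:34187553-34197225) measured 14.5, 11.9 and 14.2 RPKM in wild type, 17.3, 13.5 and 16.9 in NrasG12D/+, 15.3, 13.7 and 13.2 in Tet2+/- and 14.7, 15.7 and 16.1 in compound libraries. All 3 compound libraries exceeded all 3 wild-type libraries, by 14.7 against 14.5 at the closest, and 11.2% of all genes had no overlap in that comparison. The compound difference was 0.20 (-0.09 to 0.49, limma adjusted p = 0.826) and that of the averaged Nras allele 0.18 (-0.02 to 0.39, adjusted p = 0.744).

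Tap2 (chr17:34203527-34216321) went the other way against wild type in mean level. It measured 24.3, 19.2 and 23.5 RPKM in wild type, 19.7, 17.4 and 22 in NrasG12D/+, 14.7, 21.6 and 15.2 in Tet2+/- and 21, 18.7 and 18.5 in compound libraries. The 2 lowest values of the 12 were Tet2+/- replicates 1 and 3, while replicate 2 lay inside the wild-type range. Between Tet2+/- and wild type Tap2 differed by -0.40 (-0.76 to -0.03), with an unadjusted p of 0.0378 and a limma adjusted p of 1. In compound libraries the difference was -0.20 (-0.57 to 0.17), and the interaction for Tap2 was 0.38 (-0.14 to 0.90, adjusted p = 0.996). Tap2 overlaps the antisense gene Gm20496 and the noncoding gene Gm15821, with 11.6% of its stretches of 50 bases shared, and whether the counting used strand is not given in the sources used here.

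Tapbp encodes tapasin, which holds the empty class I molecule at the transporter. It measured 25.5, 26.9 and 25.9 RPKM in wild type, 22.8, 28.5 and 30.7 in NrasG12D/+, 31.2, 29.4 and 25.6 in Tet2+/- and 15.4, 28.1 and 23.7 in compound libraries. Compound replicate 1 stood lowest of the 12, and the other libraries lay within 22.8 to 31.2 RPKM. The compound mean was 22.4 ± 6.42 RPKM (SD, n = 3) against 26.1 ± 0.696 in wild type, a log2 difference of -0.26 (-0.71 to 0.18, limma adjusted p = 0.829). Tapbp had the most shared sequence of the set, 23.2%, chiefly with Gm19412 and with its neighbour Zbtb22.

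**Figure D4:**
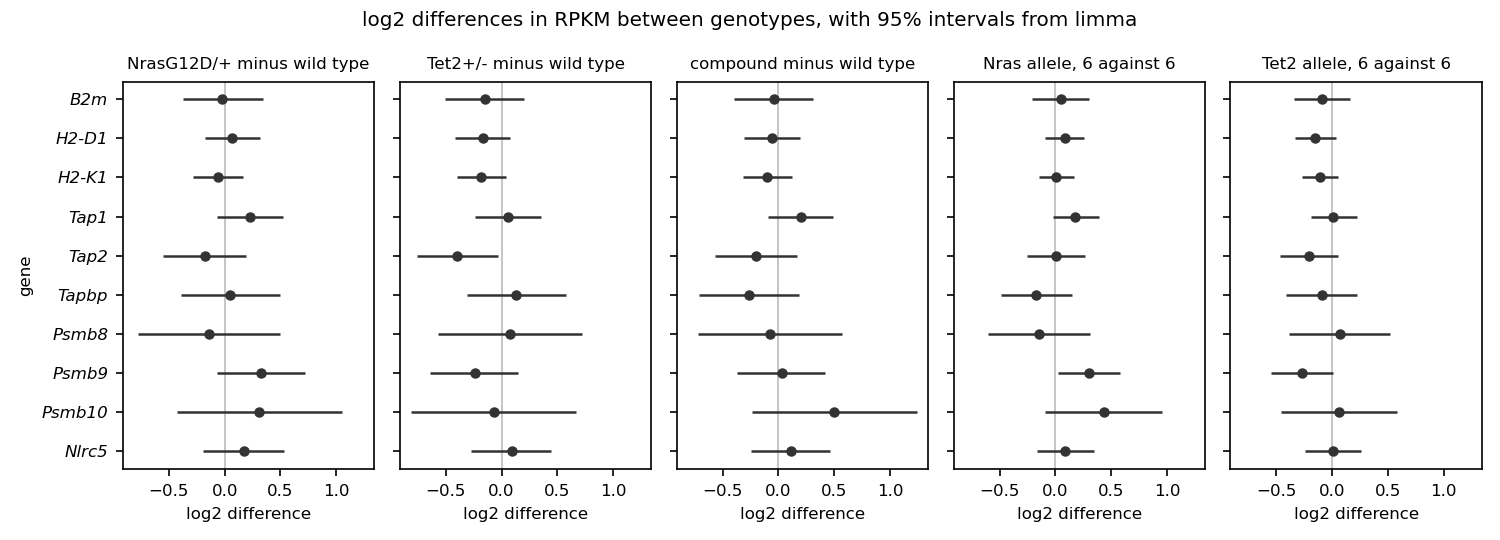
log2 differences (points) with 95% intervals (lines) from limma for the 10 genes in 5 of the 8 comparisons. Intervals are narrow for H2-K1 and H2-D1 and wide for Psmb8 and Psmb10, and those of Tap2 in Tet2+/- (-0.76 to -0.03) and Psmb9 with the Nras allele (0.02 to 0.58) leave out 0 before adjustment.

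The immunoproteasome subunits Psmb8, Psmb9 and Psmb10 (LMP7, LMP2 and MECL-1) differ in where they lie and in how they varied. Psmb9 (chr17:34181987-34187764, minus strand) faces away from Tap1 in RefSeq across the interval printed above and had the smallest p of the set in the comparison by Nras allele. It measured 9.29, 7.29 and 7.7 RPKM in wild type, 10.9, 11.6 and 8.09 in NrasG12D/+, 7.87, 6.3 and 6.34 in Tet2+/- and 7.93, 8.63 and 8.06 in compound libraries. The 2 highest values were NrasG12D/+ replicates 1 and 2, and the 2 lowest were Tet2+/- replicates 2 and 3. With the Nras allele Psmb9 was at 0.30 on the log2 scale (0.02 to 0.58, unadjusted p = 0.0381, limma adjusted p = 0.659) and with the Tet2 allele at -0.27 (-0.55 to 0.01, adjusted p = 0.963). All 3 compound libraries lay above all 3 Tet2+/- libraries, a difference of 0.27 (-0.12 to 0.66, adjusted p = 0.938), and 12.7% of all genes had no overlap there. Between the averaged alleles 0 of 10 members had no overlap of 6 and 6 libraries, beside 0.846% of all genes for Nras and 0.129% for Tet2. In the 2 comparisons not yet named, NrasG12D/+ against wild type and compound against NrasG12D/+, 0 of 10 members had no overlap, beside 9.74% and 8.48% of all genes.

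Psmb8 (chr17:34197721-34201454), which starts 496 bases past the end of Tap1, measured 19.4, 19.8 and 31.3 RPKM in wild type, 13.1, 25.6 and 26.7 in NrasG12D/+, 28.4, 23.1 and 21.4 in Tet2+/- and 26.2, 18.3 and 21.3 in compound libraries. Its highest and lowest libraries were wild-type replicate 3 and NrasG12D/+ replicate 1, a 2.38-fold range, and NrasG12D/+ libraries alone spanned 13.1 to 26.7 RPKM. The averaged differences were -0.15 (-0.60 to 0.31) for Nras and 0.07 (-0.39 to 0.52) for Tet2. The estimate for Psmb9, 0.30 with the Nras allele, lies inside the Psmb8 interval.

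Psmb10 lies outside the MHC at chr8:105935735-105938444 and was read with the fewest reads of the set, 487 to 1502 per library. It measured 21.4, 27 and 15.9 RPKM in wild type, 33, 21.9 and 24.4 in NrasG12D/+, 34.8, 15.9 and 14.5 in Tet2+/- and 35.8, 24 and 30.04 in compound libraries. Tet2+/- held both the second highest and the lowest value of the 12. The compound mean, 29.96 ± 5.87 RPKM (SD, n = 3), was the highest and the wild-type mean was 21.5 ± 5.55. That difference was 0.50 (-0.24 to 1.24, limma adjusted p = 0.828), and with the averaged Nras allele Psmb10 was at 0.44 (-0.09 to 0.96, adjusted p = 0.753).

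Each inducible subunit replaces a constitutive one: Psmb8 replaces Psmb5, Psmb9 replaces Psmb6 and Psmb10 replaces Psmb7. The RNA ratio of each pair, per kilobase of merged exons, described the balance in unstimulated stem cells. Psmb10 exceeded Psmb7 in 12 of 12 libraries, with ratios from 2.05 to 8.57 and a median of 3.11. Psmb8 exceeded Psmb5 in 12 of 12 libraries, with a median of 3.86 and a range of 1.47 to 54.3. Psmb9 exceeded Psmb6 in 1 of 12 libraries, NrasG12D/+ replicate 2, with ratios from 0.407 to 1.18 and a median of 0.651. On the deposited lengths the ranges were 1.42 to 5.95, 1.11 to 40.2 and 0.372 to 1.08 in the same order of pairs.

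The wide range of the Psmb8 pair came with Psmb5, whose 0.637 to 17.8 RPKM rested on 16 to 526 reads. Psmb5 was lowest in NrasG12D/+ replicate 2 (0.637 RPKM) and wild-type replicate 1 (1.96 RPKM), which also had more genes at 0 reads than any other library, and the ratio was highest in the same libraries, 54.3 and 13.2. In the other 10 libraries the ratio lay between 1.47 and 7.28. Psmb7 ranged from 4.04 to 13.9 RPKM and Psmb6 from 10.8 to 20.5 RPKM.

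**Figure D5:**
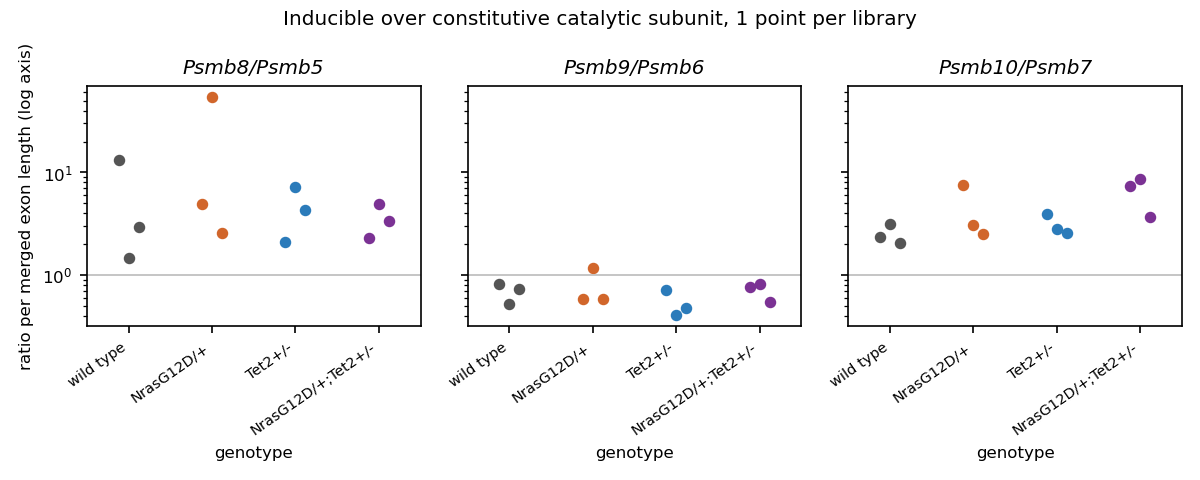
Ratio of inducible to constitutive subunit RNA per merged exon length, on a log axis, 1 point per library, by genotype, with a line at 1. Psmb8/Psmb5 and Psmb10/Psmb7 lie above 1 in 12 of 12 libraries and Psmb9/Psmb6 in 1 of 12.

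None of the 3 ratios differed by allele past the threshold. The exact two-sided permutation test of 6 against 6 libraries has 924 arrangements and a smallest p of 0.00216, and p was adjusted over the 6 tests. The Psmb10/Psmb7 ratio was 7.5, 3.1 and 2.53 in NrasG12D/+ and 7.33, 8.57 and 3.7 in compound libraries, against 2.38, 3.13 and 2.05 in wild type and 3.98, 2.84 and 2.59 in Tet2+/-. Libraries with the Nras allele held the 3 highest ratios, and the groups overlapped. The log2 ratio was higher by 0.82 with the Nras allele (exact p = 0.0519, BH adjusted p = 0.312) and by 0.49 with the Tet2 allele (exact p = 0.227, adjusted p = 0.528). The other 4 tests gave exact p from 0.264 to 0.641. Both genes of the Psmb10 pair enter its difference with the Nras allele: Psmb10 was at 0.44 and Psmb7 at -0.39 (-0.99 to 0.22, limma adjusted p = 0.836).

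Nlrc5 encodes the class I transactivator and lies at chr8:94434356-94527272, on the chromosome of Psmb10. It measured 18, 16.4 and 17.9 RPKM in wild type, 19.3, 22.4 and 17.4 in NrasG12D/+, 21, 16.8 and 18 in Tet2+/- and 23.1, 15.5 and 18.4 in compound libraries. Compound libraries held both the highest and the lowest value, and the genotypes overlapped. The averaged differences were 0.09 (-0.16 to 0.35, limma adjusted p = 0.884) for Nras and 0.01 (-0.24 to 0.26, adjusted p = 0.993) for Tet2. With merged exons as the length Nlrc5 had 33.7 ± 4.48 RPKM (SD, n = 12), beside Tap2 with 36.9 ± 5.93, and its order against Tap2 did not pass on that scale (exact sign-flip test, BH adjusted p = 0.225).

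Other genes of the pathway were read from 8 lists with 91 genes, of which 85 were in the table and 81 tested. Of the 81 tested, 0 rose and 0 fell at the limma adjusted threshold in each of the 8 comparisons, and voom called 0. At an unadjusted p under 0.05, 7 of 81 were counted with the averaged Nras allele (6 higher and 1 lower) and 3 with the averaged Tet2 allele (all lower), beside the 7.24% and 3.81% of all genes given above. Their median log2 differences were 0.07 and -0.06, against -0.01 and 0.02 over all genes.

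Among 14 tested other class I chains, H2-Q6, H2-Q4, H2-Q7 and H2-T23 had the highest levels on the deposited scale. Their means were 147, 68.8, 43.8 and 28.8 RPKM over the 12 libraries. This order may depend on length, since H2-Q7 was divided by 10924 bases against 4265 of merged exons and H2-Q4 by 4389 against 2596. H2-Q6, a nonclassical class I chain of the Qa-2 family, measured 119.7, 125 and 153 RPKM in wild type and 113, 129 and 128 in Tet2+/-, against 164, 167 and 157 in NrasG12D/+ and 176, 176 and 156 in compound libraries. All 6 libraries with the Nras allele exceeded all 6 without it, and 0.846% of all genes had no overlap in that comparison. The difference was 0.38 on the log2 scale (0.21 to 0.56, unadjusted p = 0.000655, limma adjusted p = 0.248) and did not pass the adjustment over all genes. Its neighbour H2-Q7 differed by 0.39 (0.20 to 0.59, adjusted p = 0.269) with overlap between the groups, at 44.2 RPKM for the lowest carrier against 44.4 for the highest other library. How much sequence H2-Q6 shares with H2-Q7 was not measured. Reads may be split between these neighbours, so H2-Q6 and H2-Q7 are not taken as independent of each other. With the same allele H2-K1 and H2-D1 differed by 0.01 and 0.09, with upper limits of 0.17 and 0.26. The difference between H2-Q6 and these chains was not tested. With the Tet2 allele H2-T24 had the smallest p of this list, at -0.55 (-0.94 to -0.16, adjusted p = 0.963).

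Of 12 tested genes for peptide trimming and loading, Erap1, the aminopeptidase that trims peptides in the endoplasmic reticulum, separated by Nras allele. It measured 45.9, 45.4 and 46.4 RPKM in wild type and 46.3, 46.1 and 43.2 in Tet2+/-, against 50.7, 47.7 and 49.7 in NrasG12D/+ and 48.7, 50.4 and 49.2 in compound libraries. The groups of 6 did not overlap, beside 0.846% of all genes without overlap there. The difference was small, 0.12 (0.01 to 0.23, limma adjusted p = 0.672). Calr, an abundant chaperone of this step, averaged 136 RPKM and differed by -0.15 (-0.35 to 0.05) with the Nras allele.

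Of the proteasome activators, which open the core particle, Psme1 measured 28.7, 23.9 and 26.8 RPKM in wild type, 18.7, 24.3 and 22 in NrasG12D/+, 22.6, 21.4 and 21.1 in Tet2+/- and 18, 18 and 19.2 in compound libraries. Psme1 was at -0.27 (-0.45 to -0.08, limma adjusted p = 0.479) with the Nras allele and at -0.25 (-0.44 to -0.07, adjusted p = 0.963) with the Tet2 allele, and neither passed. Pomp, the chaperone that assembles core particles, was at 0.28 (0.01 to 0.56, adjusted p = 0.678) with the averaged Nras allele. Its means were 10.1 RPKM in wild type, 10.5 in NrasG12D/+, 10.6 in compound and 7.35 in Tet2+/- libraries, so Tet2+/- stood lowest, and NrasG12D/+ differed from wild type by 0.04 (-0.35 to 0.43).

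Among 16 tested regulators of class I promoters, Irf2 was the most abundant with a mean of 57.9 RPKM and differed by 0.02 (-0.21 to 0.25) with the Nras allele. Ciita, the class II transactivator, was at 0.70 (0.07 to 1.32, limma adjusted p = 0.63) and Ezh2, which deposits a repressive histone mark, at 0.32 (0.04 to 0.59, adjusted p = 0.613), both overlapping between groups. Of the 7 interferon receptor and kinase genes, 0 had an unadjusted p under 0.05 in limma for either averaged allele, while voom counted 1 for the Tet2 allele. Tyk2 had means of 19.7 RPKM in wild type and 14 in NrasG12D/+, a difference of -0.51 (-1.02 to -0.01, unadjusted p = 0.0465, limma adjusted p = 0.87). It was 1 of 7 at an unadjusted p under 0.05 in limma there, beside 5.61% of all genes. Compound libraries, which carry the same allele, had a mean of 17.5 RPKM, above 16.5 in Tet2+/-. Jak1, the most abundant of them, averaged 50.04 RPKM. Of the class II genes, H2-Ab1 was at -0.68 (-1.23 to -0.12, adjusted p = 0.963) with the Tet2 allele, with overlap between the groups. It was 1 of 10 in that list at an unadjusted p under 0.05 in limma, beside 3.81% of all genes. Of the 10, 4 were higher and 6 lower with that allele, and their median log2 difference was -0.08.

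Markers of other cells were read because mature blood cells also express this pathway, and in RNA from many sorted cells fewer cells of a type and less RNA per cell cannot be told apart. Of 8 B cell markers 4 were in the table, with sums of 3.07 to 9.67 RPKM over all libraries. Cd79b, the only 1 tested, had means of 4.91 RPKM in wild type and 6.47 in NrasG12D/+, against 3.64 in Tet2+/- and 3.48 in compound libraries. With the averaged Tet2 allele Cd79b was at -0.68 on the log2 scale, with overlap between the groups. Its unadjusted limma p was under 0.05, beside 3.81% of all genes, and it did not pass the adjustment. Of 10 T and NK cell markers 5 were in the table, with sums of 2.1 to 12 RPKM. Nkg7 had means of 1.14 RPKM in wild type and 1.63 in Tet2+/-, against 6.8 in NrasG12D/+ and 5.4 in compound libraries. It was at 0 reads in NrasG12D/+ replicate 2. Of the 3 tested in this list, 1 was higher and 2 were lower with the averaged Nras allele, and 0 had an unadjusted p under 0.05. Of 12 markers of monocytes, macrophages and dendritic cells 5 were in the table, with sums of 84.9 to 122 RPKM, of which Lyz2 gave 75.2 to 109 while Csf1r was at 0 reads in 4 libraries and at most 0.799 RPKM. Markers of erythroid cells and megakaryocytes (8 of 10 in the table) had sums of 17.9 to 25 RPKM in wild type and 16.7 to 19.4 in Tet2+/-, against 26.6 to 51.1 in NrasG12D/+ and 30.4 to 33 in compound libraries. Pf4 and Itga2b, which mark megakaryocytes, gave most of the sums and reached 17.4 and 21.1 RPKM. Of the erythroid genes, Hbb-bs had means of 2.92 RPKM in wild type and 1.1 in Tet2+/-, against 2.04 in NrasG12D/+ and 1.23 in compound libraries, and Klf1 was at 0 reads in 5 libraries. With the averaged Nras allele 5 of the 8 tested were higher and 3 lower (Hba-a1, Hbb-bs and Klf1) on the log2 scale. Of the 8, 2 had an unadjusted p under 0.05 in limma (Pf4 at 3.23 and Itga2b at 0.54), beside 7.24% of all genes, and 0 passed the adjustment. The Pf4 difference includes Tet2+/- replicate 1 at 0 reads (0.00639 RPKM), which enlarges it. Pf4 means were 2.38 RPKM in wild type and 1.82 in Tet2+/-, against 10.2 in NrasG12D/+ and 8.49 in compound libraries. Granulocyte markers (6 of 10) summed to 4.46 to 21.5 RPKM, endothelial and stromal markers (6 of 10) to 9.08 to 14.3 RPKM, and the class II genes (10 of 10) to 61.9 to 119 RPKM. Of 10 genes known for HSCs, 10 were in the table, with sums of 157 to 191 RPKM in wild type, 181 to 184 in Tet2+/-, 131 to 173 in NrasG12D/+ and 147 to 166 in compound libraries. With the averaged Nras allele 4 of these 10 had an unadjusted p under 0.05 (1 higher and 3 lower), beside the 7.24% of all genes given above, and 0 passed the adjustment. Fgd5 was at -0.82 on the log2 scale (limma adjusted p = 0.249), with means of 12.6 RPKM in wild type and 13.3 in Tet2+/- against 8 in NrasG12D/+ and 6.95 in compound libraries. Hlf was at -0.37 (limma adjusted p = 0.384), with means of 55 and 66.9 RPKM without the allele against 46.8 and 47.4 with it. Of the 10 genes, 4 were higher and 6 lower with the averaged allele. Tek had means of 6.02 RPKM in wild type and 6.15 in Tet2+/- against 8.11 in NrasG12D/+ and 7.97 in compound libraries. Ctnnal1 had means of 4.33 and 5.17 RPKM in the same order without the allele, against 6.01 and 5.31 with it. The part of other cells and of the make-up of the sorted HSCs in the values of Psmb9, H2-Q6 and Erap1 with the Nras allele was not tested. Genes read for other cells and for that make-up included Ly6a, Kit, Slamf1, Fgd5, Hlf, Tek, Ctnnal1, Pf4, Itga2b, Cd79b and Nkg7.

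The 10 genes together moved little between libraries. Their mean log2 level relative to each gene's own mean ranged from -0.22 in Tet2+/- replicate 3 to 0.12 in NrasG12D/+ replicates 2 and 3. The 5 genes outside the lists with the pattern most like this level over the 12 libraries, by Pearson r, were Gemin5 (0.88), Aqp1 (0.84), Tlr6 (0.83), Mcm4 (0.83) and Mcm3 (0.81). These are the highest of the tested genes outside the lists, leaving out names made of Gm and digits or ending in Rik. They were chosen for their r, and the libraries share their depth with it.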

How the data were processed

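RNA from sorted HSCs was measured in 12 libraries, 3 for each of 4 genotypes taken from the sample labels. The deposited table holds log2 RPKM, an other unit than counts, which the authors made with CASAVA 1.8.2, TopHat2 and edgeR on mm10, per the submitters' processing notes, which give no role or order for them. The values fitted whole reads (tolerance 0.001 reads, 0.25 reads added) for 18546 of 18546 genes, which gave reads, depth and the gene length used. Depth was 19205045 to 36890942 reads in genes. Copies of 1 molecule are not marked, so read numbers may carry error from copying beyond counting error.

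The 15478 genes that reached 1 RPKM in 3 or more libraries entered limma 3.58.1 (R 4.3.3) with a mean for each genotype, a variance trend and 8 residual degrees of freedom, two-sided, with BH adjustment over all genes tested. Intervals are at the 95% level. Ratios were tested with exact permutation tests in scipy 1.17.1. Promoters and their alignment (Biopython 1.88) used RefSeq windows, and positions, merged exons and stretches of 50 bases used GENCODE M21. P-values measure the spread between these samples, which may be partly technical. Libraries of 1 genotype differed by more than counting error (mean chi-square 46.1 to 119.6 per gene), so each counts as 1 replicate.

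The members and gene lists were chosen with earlier results of these data known. Named were all 10 members in every comparison and, from the other lists, genes with the smallest unadjusted p for an averaged allele or the highest mean level. Likeness took 5 genes by r. Psmb5, Psmb6 and Psmb7 appear as partners of the members. Varied were the minimum RPKM, the pseudocount (0.5 RPKM), median centring, quantile normalization, the groups in the fit, a replicate block, library weights, the variance trend, voom on recovered reads, and the libraries left out. Sex as a covariate and the merged exon length were added after the data were seen.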

Additional observations from a re-analysis of the deposited data

How the results depend on the processing

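Under 23 alternative settings, 0 of 1810 log2 differences of the members passed the threshold, with a smallest adjusted p of 0.34, and 0 members were called in each of the 8 comparisons. The sign changed in 96 values, each with a reported difference of at most 0.93 standard errors. The median of the members' differences moved by more than its spread (0.09) in few settings. Leaving out 1 library at a time gave 0.01 to 0.15 for NrasG12D/+ against wild type (0.15 without NrasG12D/+ replicate 1) and -0.16 to 0.02 for Tet2+/- against wild type (0.02 without Tet2+/- replicate 3). It gave -0.15 to 0.01 for compound against NrasG12D/+ (-0.15 without NrasG12D/+ replicate 1) and -0.09 to 0.12 for the interaction (0.12 without NrasG12D/+ replicate 2, -0.09 without Tet2+/- replicate 3). Without wild-type replicate 1 and NrasG12D/+ replicate 2, where the most genes were at 0 reads, the interaction median was 0.10. For the Psmb8/Psmb5 ratio the Nras difference of 0.46 ranged from -0.20 to 0.81 and reversed to -0.20 without NrasG12D/+ replicate 2, the library with the fewest Psmb5 reads. The cause of the other moves was not tested.

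Deviations of same-numbered libraries of different genotypes correlated at -0.125 to 0.136, and those of differently numbered libraries at -0.143 to 0.162. These ranges show no clear pairing by replicate number, and they cannot exclude a weak one. With the replicate number as a block, 0 members were called in each comparison, and the Psmb10/Psmb7 difference of 0.82 with the Nras allele had an adjusted p of 0.222. Merged exons in place of the authors' length moved 8 of 10 mean levels beyond their spread, as the level order shows. At these spreads the 95% interval of a difference from wild type was narrowest for H2-K1 (-0.28 to 0.16 in NrasG12D/+) and widest for Psmb10 (-0.43 to 1.05).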
